A study of Mus musculus with 9 samples.

Results

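The genes of lipid droplet lipolysis and of its inhibitors were followed in mouse liver after feeding with a Western diet and alcohol together. The set was chosen by gene symbol, with earlier results of these data known. It holds 10 genes (Pnpla2, Pnpla3, Lipe, Mgll, Abhd5, G0s2, Hilpda, Hsd17b13, Fitm1 and Fitm2) of the 55253 in the deposited table. All 10 had a row, and 9 passed the filter on low values, a mean level over the libraries of 1 CPM or more. The exception was Pnpla3, which was listed at 0 in every library. CPM here means a read count relative to the reads of its library, after TMM scaling, which corrects for differences in library make-up. Liver RNA came from 9 male C57Bl/6J mice and was sequenced from the 3′ ends of transcripts. The 5 WD+alcohol mice were 10 weeks old when they were put on a Western diet (WD), and for 23 weeks their sweetened water held 10% alcohol, and the 4 control mice had chow and plain tap water. Diet, alcohol and sweetening were therefore never separated, and neither the sweetener nor the starting age of the controls is stated in the sources used here. Each library was taken as 1 animal, since the labels number them separately.

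Triglyceride stored in a lipid droplet is taken apart one fatty acid at a time. Adipose triglyceride lipase (ATGL, encoded by Pnpla2) makes the first cut with its co-activator ABHD5, hormone-sensitive lipase (Lipe) cuts diacylglycerol, and monoacylglycerol lipase (Mgll) releases the last fatty acid and glycerol. G0S2 and HILPDA bind ATGL and restrain it. In hepatocytes the droplet surface also carries HSD17B13 and PNPLA3, while the membrane proteins FITM1 and FITM2 act earlier, where droplets bud from the endoplasmic reticulum. Fatty liver is a state in which such droplets accumulate in hepatocytes.

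Promoter stretches are shown for Mgll, the one gene of the set that was called, and for G0s2 and Fitm2, whose levels moved together most closely from mouse to mouse. RefSeq's table for GRCm38.p6 held promoters for all 10 genes, and each line below gives the 250 bases before a start site, 5′ to 3′ on the gene's strand. These coordinates belong to that build and not to the build of the deposited values. Capitals mark matches, on either strand, to the motifs CACGTG (an E-box), GTAAACA (a FOXO core) and GGGCGG (an Sp1 box).
Mgll, chr6:88724162-88724411, + strand: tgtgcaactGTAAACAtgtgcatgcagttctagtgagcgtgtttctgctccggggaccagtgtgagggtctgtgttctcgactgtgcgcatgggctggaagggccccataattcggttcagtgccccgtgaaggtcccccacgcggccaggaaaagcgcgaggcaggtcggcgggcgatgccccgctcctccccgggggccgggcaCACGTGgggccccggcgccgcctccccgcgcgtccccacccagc
G0s2, chr1:193273189-193273438, - strand: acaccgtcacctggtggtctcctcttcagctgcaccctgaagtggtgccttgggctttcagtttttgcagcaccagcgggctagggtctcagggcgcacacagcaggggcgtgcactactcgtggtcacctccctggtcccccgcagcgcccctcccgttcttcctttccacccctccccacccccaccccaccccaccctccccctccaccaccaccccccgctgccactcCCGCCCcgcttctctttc
Fitm2, chr2:163472630-163472879, - strand: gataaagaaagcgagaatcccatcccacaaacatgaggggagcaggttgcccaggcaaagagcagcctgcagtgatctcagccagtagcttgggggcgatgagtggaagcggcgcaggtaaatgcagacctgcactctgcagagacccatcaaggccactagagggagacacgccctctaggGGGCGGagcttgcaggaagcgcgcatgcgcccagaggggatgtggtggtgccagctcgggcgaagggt

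In the stretch of Mgll shown, the E-box lay at position -44 from the start and the FOXO core at position -241. The stretch before the other start of Mgll, not shown, held neither and had GGGCGG at position -121. Among 32851 promoters of the same length, 6.02% held CACGTG, 3.17% held GTAAACA and 32.7% held GGGCGG, so the last is a common match. Of the set's 13 promoters (Mgll, Lipe and Hilpda have 2 starts each), 8 held GGGCGG, and CACGTG was found for Mgll and Lipe. The hypoxia response core GACGTG was present upstream of Hilpda, in 1 of the 13 promoters and 5.20% of all. TGACGTCA, a cAMP response element, was found in 1 of the 13, that of Pnpla3, and in 1.55% of all. AGGNCANAGGNCA, a direct repeat of the kind PPAR receptors bind, was found in 0 of the 13 and in 0.338% of all. None of the motifs overlapped another in the 3 stretches shown, and a match describes letters only. GACGTG and CACGTG share their last 5 letters.

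Reads in genes numbered 3635860 to 6643645 per library, so that 1 read was worth 0.152 to 0.270 CPM. No library repeated another within counting noise (36 pairs). WD+alcohol 1, the shallowest library, stood apart on the first principal component of all tested genes (42.1, against 2.07 to 19.1 for the other WD+alcohol libraries and -22.1 to -16.7 for the controls), and results that change without it are given below. The liver label was matched by Alb (albumin) at 14342 to 42089 CPM, which does not show that all reads came from liver cells. Mean levels were also 735 CPM with WD+alcohol against 791 CPM in controls for Cpa3, and 57.9 against 60.1 CPM for Hoxd13. Col1a1 stood at 1972 against 2075 CPM and Acta2 at 966 against 1005 CPM. The source of these reads and their part in the values of the set were not tested. Hepatocyte markers summed to 22157 to 34801 CPM with WD+alcohol and 38323 to 57318 CPM in controls, with log2 fold changes below 0 for all 6. For 2 of them (Alb and Apoa1) the limma-trend adjusted p was under 0.05, against 0.678% of all genes tested called lower. Macrophage markers summed to 436 to 746 against 106 to 223 CPM, with 10 of 10 called higher, against 1.61% of all genes. In such bulk RNA, fewer cells of a type and less RNA per cell cannot be told apart, and the part of these shifts in the results below was not tested. Neutrophil markers summed to 21.6 to 43.0 against 9.87 to 23.5 CPM and liver endothelial markers to 121 to 155 against 75.4 to 128 CPM. Among the 3 of 6 neutrophil and 5 of 5 endothelial markers that passed the filter, 0 were called. Stellate cell markers summed to 2802 to 3336 against 2831 to 3262 CPM, also with 0 called. Col1a1 and Acta2, at the means given above, made up most of these sums. Lrat, Reln, Des and Pdgfrb had group means of 16.2 CPM or less, so the sums say little about stellate cells.

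Of the 9 genes measured, 1 rose with WD+alcohol at an adjusted p under 0.05 (limma-trend), Mgll, and 0 fell. Over all 14759 genes tested, 1.61% were called higher and 0.678% lower. All 9 log2 fold changes were above 0, against 49.9% of all genes, with a median of 0.49 against -0.001. An unadjusted p under 0.05 with a higher level was reached by 7 of the 9, against 7.41% of all genes, and 2 of the 9 (Mgll and Fitm2) had every WD+alcohol library above every control, against 3.34%. Since the set was chosen with earlier results known, these shares describe it and do not test it. The number called was 4 with DESeq2 on whole reads recovered from the values (Mgll, Hilpda, Fitm1 and Fitm2; 2.52% of all genes called higher) and 3 with every library rescaled to the same total (Mgll, G0s2 and Fitm2; 2.47% of all genes).

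**Figure D1:**
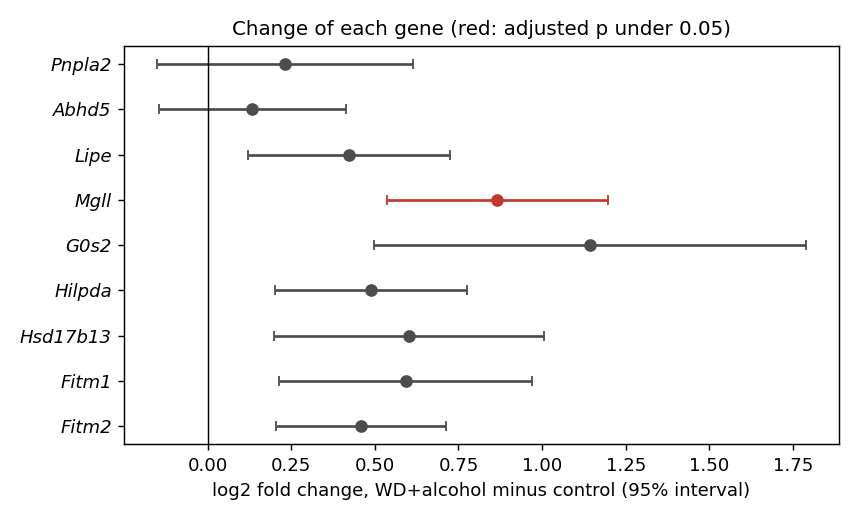
Log2 fold change of each measured gene (x axis, WD+alcohol minus control on the log2(CPM + 1) scale) with its 95% interval, for 5 against 4 mice. All 9 points lie to the right of 0, the intervals of Pnpla2 and Abhd5 cross 0, and Mgll is the one gene in red, with an adjusted p under 0.05.

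For the lipase that opens the pathway and for its co-activator, no difference was detected. Pnpla2 stood at 135, 98.1, 117, 114 and 134 CPM in WD+alcohol 1 to 5 and at 63.3, 100.2, 123 and 133 CPM in control 1 to 4. The groups overlapped: WD+alcohol 1 and 5 barely passed the highest control, and control 1 alone lay well below the rest. Means were 120 ± 15.5 CPM (SD, n = 5) and 105 ± 31.1 CPM (SD, n = 4), a log2 fold change of 0.23 (95% interval -0.15 to 0.62; adjusted p = 0.690). Without control 1 the log2 fold change was 0.01, and without control 4 it was 0.36 (limma-trend adjusted p = 0.480).

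Abhd5, the co-activator that perilipins hold back until lipolysis is stimulated, read 25.9, 17.9, 19.0, 23.8 and 18.4 CPM with WD+alcohol and 19.9, 20.6, 18.6 and 16.5 CPM in controls. WD+alcohol 1 and 4 were above all controls, and the other 3 WD+alcohol mice lay among them. Its log2 fold change was 0.13 (95% interval -0.15 to 0.41; adjusted p = 0.769). Both intervals hold 0 and small falls, and leave out rises beyond their upper ends of 0.62 for Pnpla2 and 0.41 for Abhd5. The Pnpla2 interval therefore also holds rises as large as the 0.60 estimated for Hsd17b13 below. Between 87 and 157 reads stood behind each Abhd5 value, and the counting error alone was 9.60% of the level in the WD+alcohol group and 9.91% in controls, against a spread between mice of 17.2% and 9.59%.

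Lipe, the diacylglycerol lipase that catecholamines activate in fat, had the lowest mean level of the 9 measured genes. It read 18.1, 16.0, 24.02, 20.1 and 20.02 CPM in WD+alcohol mice and 15.2, 16.8, 11.3 and 14.4 CPM in controls, from 65 to 133 reads per library. Only WD+alcohol 2 fell below the highest control, control 2. The log2 fold change was 0.42 ± 0.14 (SE), and it did not pass the threshold (adjusted p = 0.173). No alternative called it.

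Mgll, which finishes the breakdown of triglyceride and also degrades an endocannabinoid, showed the clearest difference of the set. It read 266, 201, 263, 176 and 307 CPM in WD+alcohol 1 to 5 and 102, 133, 139 and 151 CPM in control 1 to 4. The groups did not overlap: the lowest WD+alcohol mouse, number 4, lay above the highest control, number 4. Means were 243 ± 52.9 CPM (SD, n = 5) and 131 ± 20.6 CPM (SD, n = 4), a log2 fold change of 0.87 ± 0.15 (SE; limma-trend adjusted p = 0.00798). With 622 to 1532 reads per library, the counting error of Mgll was 2.83% with WD+alcohol and 3.77% in controls, and the spread between mice was 21.8% and 15.7%. Its call held when any single library was left out (adjusted p 0.00227 to 0.0305). Macrophage markers, which were higher in the same mice, are given above, and their part in the Mgll difference was not tested.

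**Figure D2:**
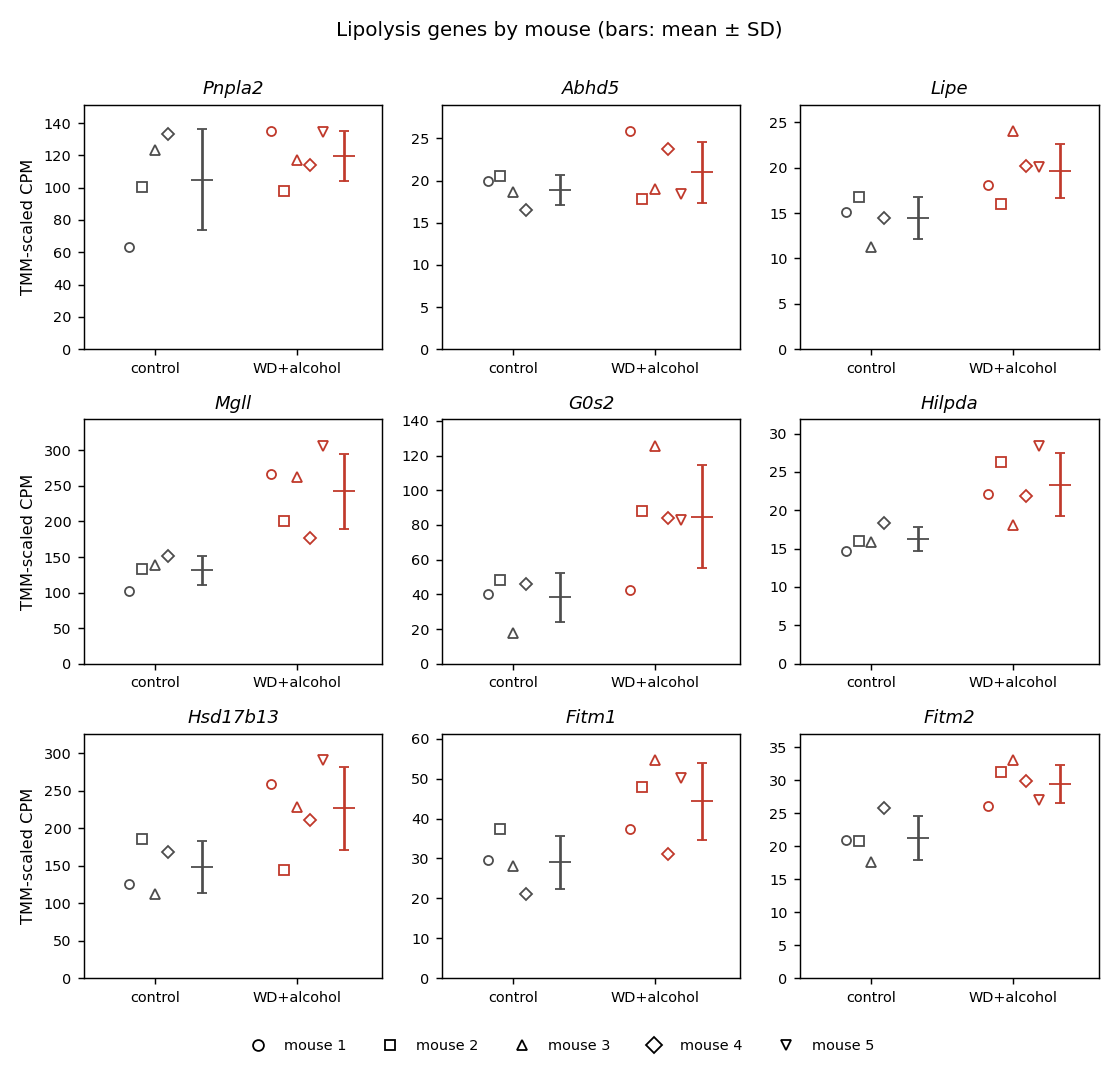
TMM-scaled CPM (y axis, from 0) of the 9 measured genes in each mouse, with the group's mean ± SD beside the points. Marker shapes give the replicate number within a group, which is not stated to pair mice. Mgll and Fitm2 are the 2 genes whose groups do not overlap.

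Both inhibitors of ATGL were higher on average without passing the test over all genes. G0s2, whose protein blocks ATGL directly, read 42.3, 88.3, 126, 84.2 and 83.1 CPM with WD+alcohol and 40.4, 48.5, 17.9 and 46.0 CPM in controls. WD+alcohol 2 to 5 lay far above the controls, and WD+alcohol 1 lay among them. Its means of 84.7 ± 29.6 (SD, n = 5) and 38.2 ± 14.0 CPM (SD, n = 4) gave the highest log2 fold change of the set, 1.14 ± 0.30 (SE), with an adjusted p of 0.0688. Without WD+alcohol 1 the log2 fold change was 1.37 and the adjusted p 0.0151, and without control 3, the lowest control, they were 0.82 and 0.147.

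Hilpda, a small droplet protein induced by hypoxia and by PPAR-alpha, read 22.1, 26.3, 18.0, 21.8 and 28.4 CPM with WD+alcohol and 14.7, 16.0, 15.8 and 18.4 CPM in controls. A single WD+alcohol mouse, number 3, was below the highest control. The log2 fold change was 0.49 ± 0.13 (SE; adjusted p = 0.0814), and without WD+alcohol 3 it was 0.57 with an adjusted p of 0.0356. With DESeq2 the adjusted p was 0.0420. Without control 1 the limma-trend adjusted p was 0.214, and only 2 of 21 alternatives called Hilpda.

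Ratios within a library set the inhibitors against the enzyme, with library scaling cancelled. The ratio of G0s2 to Pnpla2 reads was 0.313, 0.900, 1.08, 0.738 and 0.618 in WD+alcohol 1 to 5 and 0.638, 0.484, 0.145 and 0.345 in control 1 to 4. WD+alcohol 2, 3 and 4 exceeded every control, while WD+alcohol 1 ranked below control 1, 2 and 4. WD+alcohol 1 combined the highest Pnpla2 and Abhd5 of all 9 mice with the lowest G0s2 of its group. The ratio of Hilpda to Pnpla2 overlapped widely, from 0.154 to 0.268 with WD+alcohol and from 0.128 to 0.232 in controls, and 1 of 5 WD+alcohol mice exceeded all controls. Against Abhd5, G0s2 stood at 1.64 in WD+alcohol 1 and at 3.54 to 6.63 in the other 4, compared with 0.963 to 2.79 in controls. The ratio of Abhd5 to Pnpla2, 0.137 to 0.209 with WD+alcohol and 0.124 to 0.315 in controls, lay wholly within the control range. The ratio of Mgll to Pnpla2 was 1.97, 2.05, 2.25, 1.55 and 2.28 with WD+alcohol and 1.62, 1.33, 1.13 and 1.13 in controls, so that 4 of 5 mice exceeded all controls. These ratios were not tested.

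**Figure D3:**
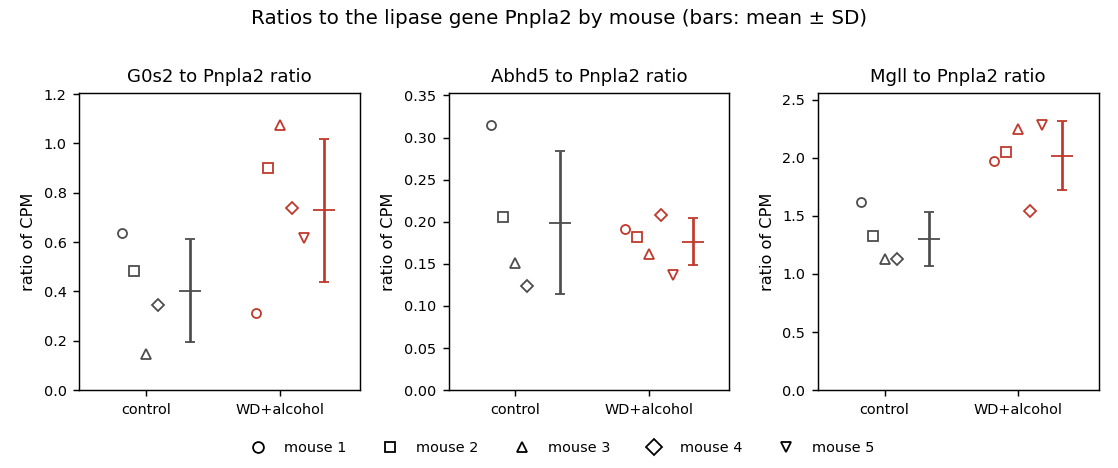
Ratio of CPM (y axis, from 0) of G0s2, Abhd5 and Mgll to the lipase gene Pnpla2 in each mouse, with the mean ± SD of each group. In the left panel WD+alcohol 1 lies at 0.313 among the controls, and in the middle panel all WD+alcohol mice lie within the control range of 0.124 to 0.315.

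Of the other droplet proteins, Hsd17b13, a hepatocyte enzyme of the droplet surface, read 259, 144, 228, 211 and 291 CPM with WD+alcohol and 125, 186, 113 and 168 CPM in controls. WD+alcohol 2 alone fell among the controls. The log2 fold change was 0.60 ± 0.19 (SE; adjusted p = 0.140), and without WD+alcohol 2 it was 0.75 with an adjusted p of 0.0211. Without control 1 it was 0.53 with a limma-trend adjusted p of 0.327, and only 1 of 21 alternatives called Hsd17b13. Its neighbour in sequence family, the droplet dehydrogenase Hsd17b11, rose, with 261 ± 45.8 CPM (SD, n = 5) against 142 ± 23.8 CPM (SD, n = 4) and a log2 fold change of 0.87 (adjusted p = 0.00403). The ratio of Hsd17b13 to Hsd17b11 ran from 0.747 to 0.967 with WD+alcohol and from 0.883 to 1.31 in controls.

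The droplet-budding proteins FITM1 and FITM2 are named for fat storage rather than its release. Fitm1, better known from skeletal muscle, read 37.5, 47.8, 54.6, 31.2 and 50.2 CPM with WD+alcohol and 29.5, 37.4, 28.2 and 21.0 CPM in controls. WD+alcohol 4 lay below control 2, and the other 4 lay above every control. The log2 fold change was 0.59 ± 0.18 (SE; adjusted p = 0.115), and it was 0.71 with an adjusted p of 0.0393 without WD+alcohol 4, and 0.45 with an adjusted p of 0.302 without control 4. The DESeq2 adjusted p was 0.0473. The 7 skeletal muscle markers together summed to 11.4 to 14.8 CPM with WD+alcohol and 11.3 to 17.1 CPM in controls. Only 2 of the 7 passed the filter, with 0 called. Ckm, the muscle creatine kinase, was at 0 in all 9 libraries. The part of muscle reads in the Fitm1 values was not tested.

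Fitm2, the form found in most tissues, read 26.1, 31.2, 33.0, 29.8 and 27.0 CPM with WD+alcohol and 20.9, 20.8, 17.6 and 25.8 CPM in controls. The groups did not overlap, though WD+alcohol 1 and control 4 were almost level. The log2 fold change was 0.46 ± 0.12 (SE; adjusted p = 0.0637). The adjusted p was 0.0307 without control 4, 0.0309 with DESeq2 and 0.0304 with rescaling to one total. Without control 3 the limma-trend adjusted p was 0.169, and only 3 of 21 alternatives called Fitm2. For each of G0s2, Hilpda, Hsd17b13, Fitm1 and Fitm2, the library whose removal gave an adjusted p under 0.05 was the one closest to the other group.

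Pnpla3, a droplet protein of hepatocytes that binds ABHD5, had 0 reads in all 9 libraries, out of 49023389 reads in genes. Zero reads allow a level of up to 0.455 to 0.809 CPM in single libraries (3 reads each), which covers counting error only. Its next neighbour in the genome by the GENCODE M21 annotation of GRCm38, Samm50, was read at 74.5 to 93.3 CPM. In the same annotation a transcript on the same strand, Gm49513, overlaps the Pnpla3 gene, and it too was at 0 in all libraries. The treatment of reads in overlapping genes is not stated in the labels, the cause of the 0 was not tested, and no change was computed. For the other genes, every overlapping annotated gene in M21 stood at 3.36 CPM or less. Since the use of strand in counting is not stated either, reads of those on the opposite strand cannot be told apart from the gene's own.

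A 3′-end library counts about one tag per transcript, so levels of different genes can be ordered without dividing by length, although capture at the 3′ end can differ between genes. By the mean over the 9 mice the order was Mgll (193 CPM), Hsd17b13 (192), Pnpla2 (113), G0s2 (64.1), Fitm1 (37.5), Fitm2 (25.8), Hilpda (20.2), Abhd5 (20.1) and Lipe (17.3). Mgll stood above Hsd17b13 in 4 of 5 WD+alcohol mice but in 1 of 4 controls. Hilpda exceeded Abhd5 in 3 of the 9 mice, so these neighbours cannot be ordered beyond their spread, and the other neighbouring pairs kept the order in 7 or 8 of the 9. Among all tested genes these means ran from the percentile 52.9 (Lipe) to 94.97 (Mgll).

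The genes did not vary as one block. WD+alcohol 3 held the highest value of 4 genes, WD+alcohol 5 of 3 and WD+alcohol 1 of 2, while control 3 held the lowest of 4, control 1 of 3 and control 4 of 2. In WD+alcohol 1, 3 and 4 all 9 genes were above the mean of the controls, in WD+alcohol 5 8 were, and in WD+alcohol 2 6 were. After subtracting each group's mean, Pearson's r between 2 genes of the set ran from -0.47 (Fitm2 and Abhd5) to 0.80 (G0s2 and Fitm2) over 36 pairs, with a median of 0.04. G0s2 and Lipe had r = 0.73 and Mgll and Pnpla2 r = 0.74 by this measure. These correlations rest on 9 libraries that share 2 group means and a scaling, and are given as description.

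**Figure D4:**
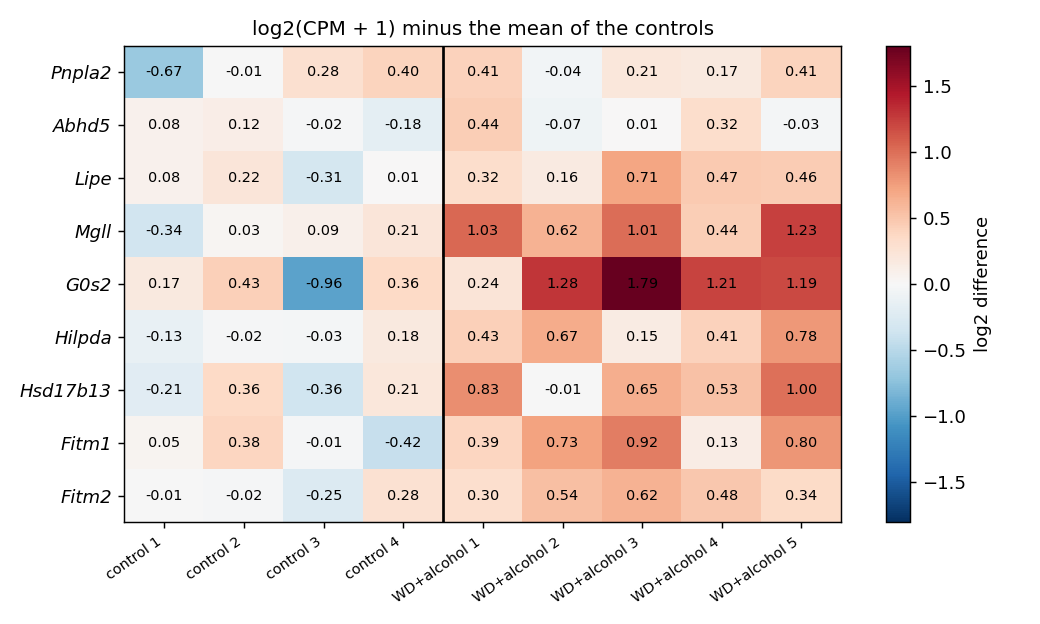
Difference of log2(CPM + 1) from the mean of the 4 controls (colour and number in each cell) for the 9 measured genes (rows) in each mouse (columns; the line parts controls from WD+alcohol). G0s2 shows the widest range, from -0.96 in control 3 to 1.79 in WD+alcohol 3, and Abhd5 the narrowest.

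Across the 10274 genes compared, whose mean was 5 CPM or more, the 3 whose level followed Mgll most closely over the 9 mice were Pex11a (Pearson's r = 0.98), Gas6 (0.97) and Apoa4 (0.96). Pex11a, a peroxisome membrane protein gene induced by PPAR-alpha, read 210 CPM in WD+alcohol 1, 186 in number 2, 203 in number 3, 130 in number 4 and 245 in number 5, and 77.6, 98.3, 97.3 and 120.1 CPM in control 1 to 4. The order of the mice was nearly that of Mgll, down to WD+alcohol 4 as the lowest of its group and control 1 as the lowest of all. With the group means subtracted, r was 0.94 for Pex11a, 0.89 for Gas6, a growth-arrest ligand of TAM receptors, and 0.85 for Apoa4, an apolipoprotein. Both of the last were higher with WD+alcohol as well, with log2 fold changes of 0.96 (adjusted p = 0.0104) and 2.79 (adjusted p = 0.00210). Likeness was the ground for naming these genes, so their r is a description.

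**Figure D5:**
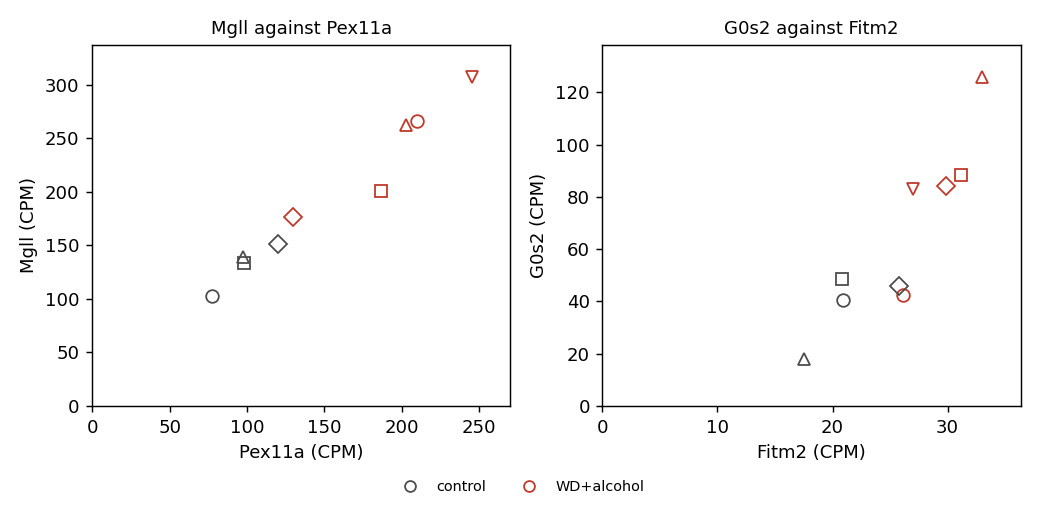
Left, Mgll against Pex11a, and right, G0s2 against Fitm2, each in CPM with 1 point per mouse (grey, control; red, WD+alcohol; shapes give replicate numbers within a group). In both panels mice with more of one transcript tended to have more of the other, though not mouse by mouse. On the right WD+alcohol 1 lies beside control 4, with slightly more Fitm2 and less G0s2.

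Around the set, other genes of the pathway were counted from 4 lists. Over all genes tested, 1.61% were called higher and 0.678% lower. Of 15 measured neutral lipid hydrolases outside the set, 0 rose and 1 fell (median log2 fold change -0.06). This was Ces3b, a carboxylesterase with close paralogs whose reads could be shared, at 168 ± 113 against 417 ± 96.9 CPM (adjusted p = 0.0450). Its call was lost in 15 of 21 alternatives, among them DESeq2 (0.127). Of 15 droplet coat and assembly genes 4 rose and 0 fell (median 0.03), the fusion protein Cidec with a log2 fold change of 4.46 (adjusted p = 9.66e-05) and Hsd17b11 having the smallest p. The coat protein Plin5, which also binds ABHD5 and ATGL, was not among them (28.9 ± 9.40 against 35.4 ± 20.1 CPM; adjusted p = 0.912).

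Of 23 genes of hormonal and transcriptional control of lipolysis, 1 rose and 0 fell (median -0.03). The one was Pparg, a lipid-storage receptor, at 12.5 ± 3.35 CPM (SD, n = 5) against 5.19 ± 2.24 CPM (SD, n = 4), with an adjusted p of 0.0138. Of 12 genes that handle glycerol and fatty acids after lipolysis, 3 rose and 0 fell (median 0.07). The intestinal-type fatty acid binding protein gene Fabp2 rose by 1.14 on the log2 scale (adjusted p = 4.31e-04), and Cpt1a, which admits fatty acids to mitochondria, by 0.60 (adjusted p = 0.0136). Among 8 adipocyte markers, the leptin gene Lep was at 0 in all libraries, Adipoq, the adiponectin gene, reached at most 0.400 CPM and Plin1 1.08 CPM. The 8 together summed to 10.5 to 134 CPM with WD+alcohol and 4.28 to 7.35 CPM in controls, with Cfd and Cidea higher. Cidea also belongs to the droplet list, and the part of these adipocyte markers in the values of the set was not tested.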

How the data were processed

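RNA of 9 mouse livers was extracted with Trizol and made into Collibri 3′ mRNA libraries, per the labels' protocols. Per the submitters' processing notes, tools were Trim Galore 0.6.0, cutadapt 1.18, STAR, HTSeq 0.11.0 and edgeR 3.28.1 (R 3.6.3) on GRCm39. The deposited values are a signal, read counts that the authors scaled to CPM with TMM factors. Dividing each column by its smallest positive value returned whole reads for 100% of values (tolerance 1e-06, relative).

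Library names in the labels tied columns to samples. The two-sided test was limma-trend, from limma 3.58.1 in R 4.3.3, on log2(CPM + 1). It covered the 14759 genes whose mean was 1 CPM or more, and p-values were adjusted over all of them by Benjamini-Hochberg, with calls at 0.05. On the log2(CPM + 1) scale, changes of low genes come out too small. Whole reads served edgeR 4.0.16 (quasi-likelihood) and DESeq2 1.42.0 as alternatives. The other alternatives were pseudocounts of 0.25 and 5, no filter or a mean of 5 CPM, 3 scalings, robust fitting, array weights, a replicate block and leaving out each library. The fit was tested on simulated data. The members, the lists of other genes and the motifs were chosen with earlier results of these data known. All members were named, with the 2 called genes of smallest p per list and the 3 genes most like each called member. Plin5, Cpa3, Hoxd13, the markers and the correlated pairs were picked after their values were seen. Of 18 names in the droplet coat list, 2 had no matching symbol. Figures were drawn with matplotlib 3.10.9. The labels do not say that libraries came from separate extractions or days, so p-values measure the spread between these 9 samples.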

Additional observations from a re-analysis of the deposited data

How the results depend on the processing

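Over 21 alternatives all 9 measured genes kept a log2 fold change above 0 in every one, and 178 of 189 gene results stayed on their side of the threshold. The number called higher was 1 and became 3 with every library rescaled to one total, 4 with DESeq2, and 1 to 2 when single libraries were left out. Over all genes, the fits with 1 library left out called from 139 of 14758 higher (without WD+alcohol 5) to 264 of 14771 (without WD+alcohol 4). The second call without WD+alcohol 1, 2, 3 or 4 or control 4 was G0s2, Hsd17b13, Hilpda, Fitm1 and Fitm2 in turn. None was called lower in any alternative. Mgll ranged from 0.75 to 0.97 on the log2 scale, and Pnpla2 from 0.01 to 0.36. The 9 genes called in the other lists became 2 with the replicate block, and 15 of the 18 calls lost among the list genes named were those of Ces3b. Same-numbered libraries did not deviate together (correlations of -0.31 to -0.01 over 4 numbers, and 0 of 8 libraries correlated best with its own number). The labels do not state that the numbers pair mice, and 4 correlations are too few to exclude a pairing. With the replicate block, in which WD+alcohol 5 has no partner and drops out of the contrast, 0 members were called and the adjusted p of Mgll was 0.111 (limma-trend). At an unadjusted p under 0.05, 6 of 9 members were higher in that fit, against 738 of all 14759 genes, and over all genes the calls were 76 higher and 36 lower, compared with 238 and 100 without the block. At 65 to 133 reads per library for Lipe, and similar depth for Abhd5, Hilpda and Fitm2, small changes of these genes could not be separated from counting error.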

Other observations

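Some pairs outside the main comparison may interest a reader. Adrb3, a beta-adrenergic receptor of fat cells, was read at 2.31 to 3.99 CPM in controls and 0.153 to 3.64 CPM with WD+alcohol (log2 fold change -0.71, adjusted p = 0.431), while Adipoq and Lep were at or near 0. Plin3, a coat protein of small droplets, stood at 44.1 ± 6.94 CPM (SD, n = 5) against 31.3 ± 2.35 CPM (SD, n = 4) with an adjusted p of 0.0598, close to the values of Fitm2 and G0s2. Abhd6, a monoacylglycerol hydrolase that shares its substrate with Mgll, had a log2 fold change of 0.54 (adjusted p = 0.107). These genes were picked after their values were seen.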
